A study of Ovis aries with 15 samples.

Results

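The genes described here are the heat shock proteins of the cytosol and their partners in the sheep mammary gland, followed from late pregnancy into lactation. They were taken by symbol from a table of 24691 features. Symbols that begin with HSPA, HSPB, HSPD, HSPE, HSPH, HSP90A, DNAJA, DNAJB, DNAJC or BAG were kept, without 5 genes of the endoplasmic reticulum (HSPA5, DNAJB9, DNAJB11, DNAJC3 and DNAJC10), which left 69 genes. Of these, 61 had at least 10 exon reads in at least 6 libraries and are the members. The other 8 (DNAJB7, DNAJB13, DNAJC5B, DNAJC5G, HSPA12A, HSPB3, HSPB7 and HSPB9) had at most 5 exon reads in any library. Just inside the limit stood HSPB6, with at least 10 reads in 9 libraries, and DNAJC6, in 10 libraries. HSPE1, DNAJB6 and BAG2 were not found under these symbols and were not analysed here. The symbol rule does not separate compartments. Among the members 8 work in mitochondria (HSPA9, HSPD1, DNAJA3, DNAJC11, DNAJC15, DNAJC19, DNAJC28 and DNAJC30), and HSPA13 belongs to microsomes. The other members were not sorted by compartment. Taking out 5 symbols therefore does not clear the list of proteins of the endoplasmic reticulum, among the DNAJB and DNAJC genes too. The rule also takes in HSPBP1 and HSPBAP1, which bind heat shock proteins without being one, and HSPB11, a part of the intraflagellar transport machinery.

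Chaperones of the HSP70 family bind stretches of unfolded protein and release them in a cycle driven by ATP. Proteins with a J domain (the DNAJ families) bring clients to HSP70 and start ATP hydrolysis, and the nucleotide exchange factors, which include the HSP110 and BAG proteins, end the cycle. HSP90 takes over clients that are nearly folded, among them steroid hormone receptors and kinases, and small heat shock proteins hold unfolded protein until HSP70 is free. Some of these genes are constitutive, such as HSPA8 and HSP90AB1, while others, such as HSPA1A, HSPA6, DNAJB1 and BAG3, are classical targets of heat shock factor. The gland of late pregnancy is still growing, and the gland in lactation secretes large amounts of protein, fat and lactose.

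RNA came from needle biopsies of the mammary gland of primiparous Romney ewes, taken on day 135 of gestation (late pregnancy) or on day 15 post partum (lactation). Of the 15 libraries, 9 hold late pregnancy pools and 6 hold lactation pools, each of RNA from several ewes (3 a pool in the study's methods, and 3 for late pregnancy but 2 for lactation in the sample labels). The pools also carry the feed that the ewes' own dams had in early gestation, ad libitum (HM), maintenance (MM) or sub-maintenance (LM), with 3 late pregnancy and 2 lactation pools for each. Since the tissue was biopsied whole, fewer cells of a type and less RNA per cell cannot be told apart. By the study's methods ewes were biopsied a second time in lactation and pools were drawn at random. Which pools share ewes is not given in the sources used here, so the fits took all pools as independent, and p-values measure the spread between pools, not between ewes.

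Reads on genes numbered 7597938 to 19823166 per late pregnancy library and 10352962 to 25679416 per lactation library. Before parturition 13.7% to 23.4% of the reads used fell on genes of 7 milk proteins, against 71.3% to 75.8% in lactation. The members took 0.548% to 0.701% of all reads in late pregnancy libraries and 0.196% to 0.254% in those of lactation, but 0.680% to 0.838% and 0.809% to 0.946% of the reads outside the milk protein genes. Levels are therefore given as CPM, reads divided by a library size that is scaled by TMM (a method that sets the bulk of genes equal between libraries), and every change is a change relative to the bulk of genes. With library size alone the median log2 change of all genes was -1.94. Of the 61 members 57 were then called lower in lactation, beside 13057 of 13345 genes called in either direction, 97.3% of these lower. DNAJC12 and HSPA6 were called higher in lactation under that scaling too. Relative to that median, the 30 members called higher were all above it and the 15 called lower all below it. Scaling moves all genes of a library alike, so this was nearly fixed in advance and is no separate support. The same holds wherever changes are set beside that median below. Among cell type markers, those of luminal epithelium summed to 1417 to 1736 CPM in late pregnancy and 2290 to 2551 in lactation, with 4 of 6 markers higher. Markers of dividing cells were lower in 6 of 6, T cells in 5 of 5, macrophages in 4 of 5, fibroblasts in 3 of 4 and endothelium in 3 of 3. Of 6 myoepithelial markers 3 were higher and 2 lower, and of 5 adipocyte markers 0 were called and 2 not tested. B cells and skeletal muscle each had 1 of 4 markers lower and 3 not tested.

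The first question was which of these chaperones change between the states. Of the 61 members, 30 were higher in lactation (49.2%) and 15 lower (24.6%) at an adjusted p under 0.05 by edgeR's quasi-likelihood test, beside 33.1% higher and 35.2% lower among the 13345 genes tested. In 33 members (54.1%) the values of late pregnancy and lactation did not overlap, beside 40.2% of all genes tested. In either direction 45 were called, beside 68.4% of all genes. Scaling by the upper quartile in place of TMM gave 23 members higher and 20 lower. At that setting 9410 of the 13345 genes were called, and 63.7% of these calls were lower, beside 51.6% with TMM. DNAJA2, DNAJA3, DNAJC1, DNAJC14, DNAJC24, HSPA14 and HSPBP1, all with small changes, were no longer called, and BAG4, BAG6, DNAJA4, DNAJC4 and HSPA9 were called lower. A change of more than 2-fold was seen in 9 members upwards (DNAJC12, HSPA6, HSPB8, HSPA1A, BAG3, HSPA8, DNAJB2, DNAJB1 and HSPA13) and in 4 downwards (DNAJC18, HSPA12B, DNAJC7 and DNAJC9), beside 9.13% and 13.0% of all genes. The median log2 change of the members was 0.15, and that of all genes tested was -0.03. The 16 members that were not called were BAG4, BAG6, DNAJA1, DNAJA4, DNAJC4, DNAJC6, DNAJC13, DNAJC22, DNAJC28, DNAJC30, HSPA1L, HSPA2, HSPA4L, HSPA9, HSPB6 and HSPBAP1.

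**Figure D1:**
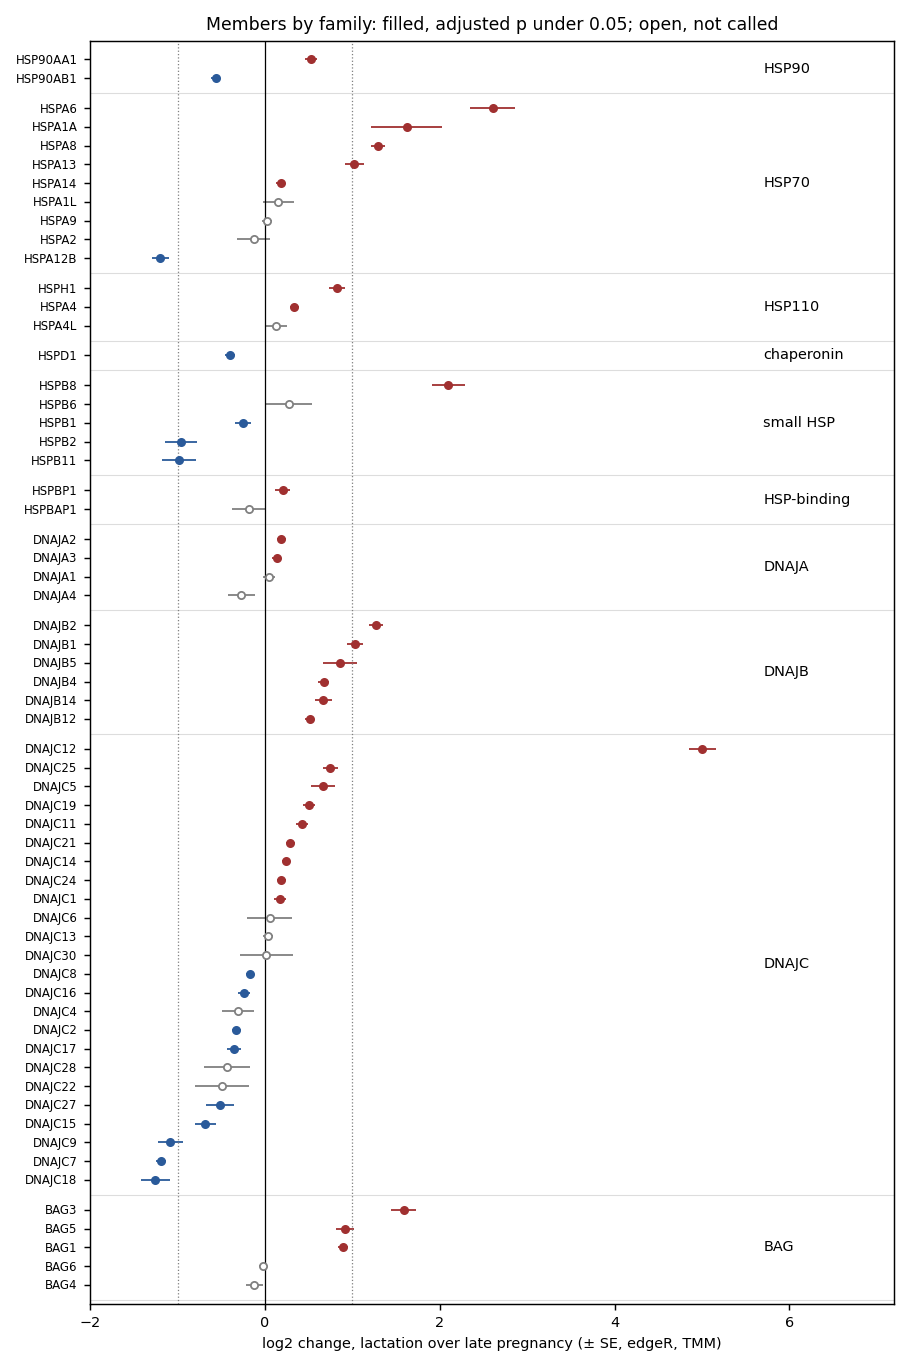
Log2 change of each of the 61 members from late pregnancy (9 libraries) to lactation (6 libraries), grouped by family, with its SE from edgeR. Filled points were called (red higher in lactation, blue lower), open points were not, and dotted lines mark a 2-fold change. DNAJC12 stands at 5.003, and all 6 DNAJB genes lie right of 0.

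The HSP90 genes moved in opposite directions. HSP90AA1, the stress-responsive form, had 428, 475 and 562 CPM in late pregnancy (lowest, median and highest library) and 639, 674 and 751 in lactation. HSP90AB1, the constitutive form, had 642, 671 and 705 CPM in late pregnancy and 388, 457 and 507 in lactation. Neither gene had overlapping values between the states. HSP90AA1 rose by 0.53 on the log2 scale (SE 0.07, edgeR adjusted p = 9.2e-07), and HSP90AB1 fell by 0.57 (SE 0.06, edgeR adjusted p = 2.0e-08). With library size alone HSP90AA1 was at -1.38 and HSP90AB1 at -2.47, so that the sign of HSP90AA1 turned. The order of these genes hardly depends on scaling.

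A ratio of these genes within a library does not depend on scaling. Per kilobase of exon, HSP90AA1 had 0.559 to 0.740 times the reads of HSP90AB1 in the 9 late pregnancy libraries and 1.23 to 1.498 times in the 6 lactation libraries. HSP90AA1 was thus the less abundant of the pair in 9 of 9 late pregnancy libraries and the more abundant in 6 of 6 of lactation. The mean log2 ratio was -0.68 ± 0.14 (SD, n = 9) in late pregnancy and 0.42 ± 0.13 (SD, n = 6) in lactation, a difference of 1.10 (exact two-sided permutation test, p = 4.0e-04, the smallest it can give with 9 and 6 libraries, and 4.0e-04 adjusted over 3 ratios). Since the CPM of both genes lay apart in opposite directions, the ratio had to lie apart too, and this p adds nothing to that. The values by library stand in the plot of ratios.

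**Figure D2:**
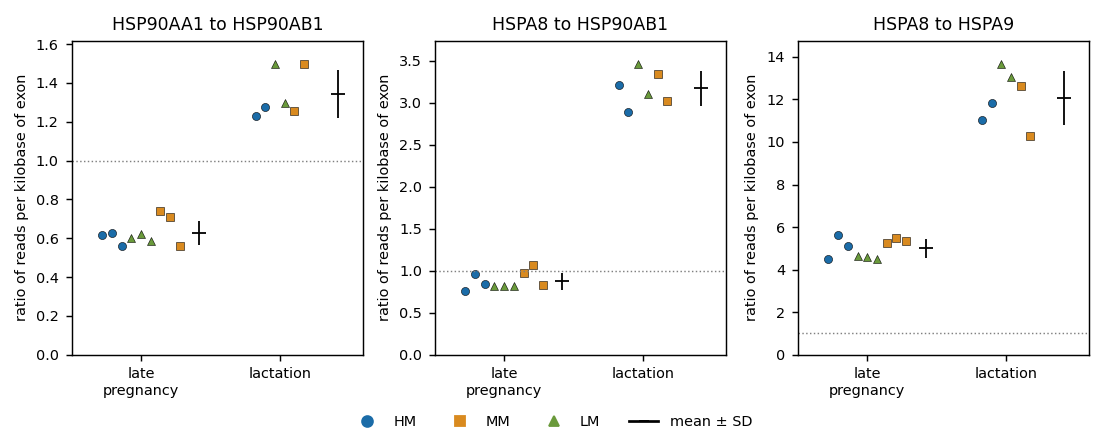
Ratio of exon reads per kilobase between pairs of members in each library, by state (HM, MM and LM are the feed groups of the ewes' dams; bars are mean ± SD; the dotted line is a ratio of 1). HSP90AA1 to HSP90AB1 lies below 1 in late pregnancy and above 1 in lactation, and HSPA8 to HSP90AB1 reaches 2.89 to 3.46 in lactation.

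Among the 9 HSP70 genes, HSPA6, HSPA1A, HSPA8, HSPA13 and HSPA14 rose, HSPA12B fell, and HSPA1L, HSPA2 and HSPA9 did not pass the test. With library size alone HSPA6 was above 0 (log2 0.70), and the other 4 that rose were below 0 but above the median of all genes. HSPA8, the constitutive cytosolic HSP70 that also strips clathrin from vesicles, had 616, 668 and 854 CPM in late pregnancy and 1380, 1769 and 1856 in lactation. Every lactation library lay above every late pregnancy library, and the change was 2.45-fold (log2 1.29, SE 0.08, edgeR adjusted p = 1.9e-11). By reads per kilobase it was below HSP90AB1 in 8 of 9 late pregnancy libraries, with ratios of 0.755 to 1.07, and above it in 6 of 6 lactation libraries, with 2.89 to 3.46. That log2 ratio differed by 1.86 between the states (exact permutation test, p = 4.0e-04, adjusted 4.0e-04). This p too followed from CPM values of both genes that lay apart in opposite directions. The ratio of HSPA8 to HSPA9, the HSP70 of mitochondria, went from 4.48 to 5.65 up to 10.3 to 13.7, a log2 difference of 1.27 with the same p of 4.0e-04 by the exact permutation test. HSPA9 itself had a log2 change of 0.02 (SE 0.06, edgeR adjusted p = 0.778).

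HSPA8, HSP90AA1 and HSP90AB1 together held 46.9% ± 0.962 (SD, n = 9) of the members' summed RPKM (deposited reads per kilobase of exon, scaled to the reads on genes of a library) in late pregnancy and 50.8% ± 1.70 (SD, n = 6) in lactation. HSPA8 alone went from 16.4% ± 1.19 to 29.2% ± 1.77, and HSP90AB1 from 18.8% ± 0.881 to 9.24% ± 0.595. HSP90AA1 held 11.7% ± 0.723 and 12.3% ± 0.567. In late pregnancy the next places per kilobase were taken by HSPD1, DNAJA1 and HSPA9, which ranked 4, 5 and 6 in each of the 9 libraries. Only 44.6% of HSPD1 reads and 6.54% of DNAJA1 reads were placed at 1 site alone, so their places can depend on reads shared with near copies. In lactation DNAJC12 ranked between place 4 and place 6, after a place between 43 and 49 in late pregnancy.

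The inducible HSP70 genes were uneven between lactation pools. HSPA6, which is silent in most unstressed human tissue, had 1.37, 2.62 and 3.23 CPM in late pregnancy. In lactation it had 13.8 and 8.44 CPM in the HM pools, 30.9 and 6.47 in the LM pools and 21.3 and 10.9 in the MM pools. All 6 values lay above late pregnancy, at 6.09-fold (log2 2.61, SE 0.26, edgeR adjusted p = 2.3e-08). HSPA1A had 5.76, 10.6 and 17.7 CPM in late pregnancy, and in lactation 8.79 and 7.91 in the HM pools, 55.5 and 5.14 in the LM pools and 75.3 and 33.4 in the MM pools. Here 3 lactation pools lay above all of late pregnancy and 3 lay within or below its range, with a log2 change of 1.62 (SE 0.40, edgeR adjusted p = 0.00147).

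The first LM and the first MM lactation pool had the highest CPM of both genes. Without those 2 pools, a setting chosen after the values were seen, HSPA1A changed by 0.48 (edgeR adjusted p = 0.269) and HSPA6 by 1.94 (edgeR adjusted p = 7.5e-08). HSPA1A also missed the threshold on the quantile-normalized RPKM, with 0.81 (limma adjusted p = 0.0917). Of the HSPA1A reads only 23.9% were placed at 1 site alone, so they can be shared with near copies, and with unique reads the change was 1.67. HSPA1A lies on chromosome 20 at 26660385 to 26662310 as a single exon, beside HSPA1L at 26662994 to 26666622 (positions of the deposited table). A feature named HSP70.1 lies before them at 26648940 to 26651384 and has 28.6% unique reads. It is not a member by symbol, and it had 61.2, 70.3 and 77.6 CPM in late pregnancy and 128, 154 and 275 in lactation (log2 1.36, SE 0.14, edgeR adjusted p = 3.4e-08). Its highest values, 275 and 235 CPM, were again in the first LM and the first MM lactation pool. HSPA1L, with unique reads throughout, had a log2 change of 0.15 (SE 0.18, edgeR adjusted p = 0.463), though on quantile-normalized RPKM it was called higher (0.20, limma adjusted p = 0.035).

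**Figure D3:**
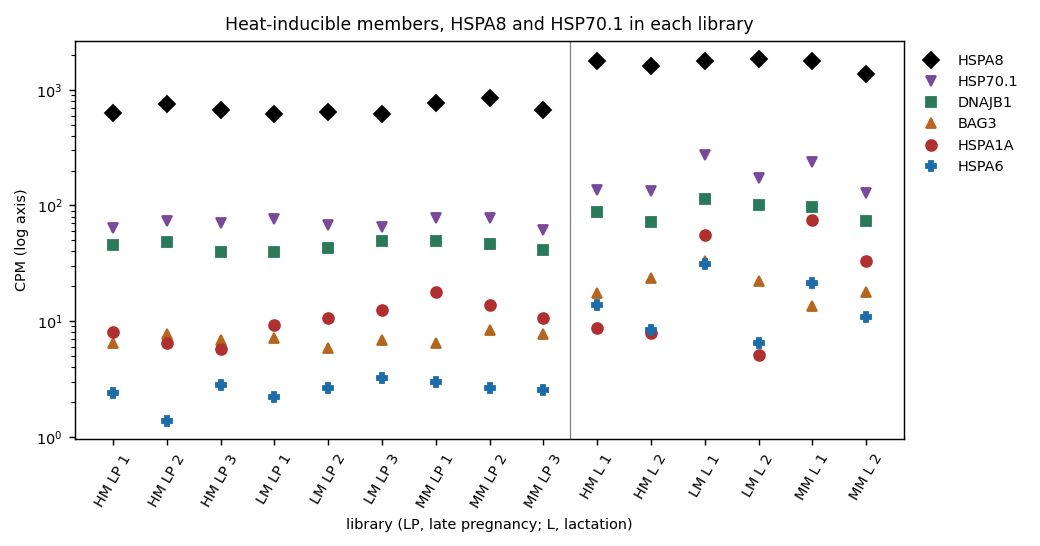
CPM on a log axis of the heat-inducible members HSPA1A, HSPA6, DNAJB1 and BAG3, of HSPA8 and of the non-member HSP70.1 in each of the 15 libraries. HSPA1A spans 5.14 to 75.3 CPM among the 6 lactation libraries, while HSPA8 spans 1380 to 1856.

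HSPA13, an HSP70 of microsomes that lacks the domain for binding peptides, had 9.65, 12.0 and 15.7 CPM in late pregnancy and 20.6, 24.9 and 30.6 in lactation, without overlap (log2 1.02, SE 0.11, edgeR adjusted p = 9.0e-08). HSPA6, HSPA8, HSPA13 and the HSP110 gene HSPH1 stand in a heat shock group that the study drew from these same samples, so that their rise is not independent evidence of that group. HSPA14, which sits on the ribosome with the J protein DNAJC2, had a log2 change of 0.18 (SE 0.05, edgeR adjusted p = 0.0069), and its call was lost with no filter (0.13, edgeR adjusted p = 0.0672), with at least 10 reads in every library, with upper quartile scaling and on quantile-normalized RPKM, while with library size alone it was called lower (-1.73, edgeR adjusted p = 5.3e-16). DNAJC2 had 30.4, 33.2 and 34.1 CPM in late pregnancy and 21.8, 26.6 and 28.1 in lactation, and fell by 0.33 (SE 0.06, edgeR adjusted p = 3.8e-05). HSPA2, the testis-rich form, had a log2 change of -0.13 (SE 0.19, edgeR adjusted p = 0.562).

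HSPA12B, a distant HSP70 known from the endothelium, was the 1 member of the family that fell. It had 24.3, 29.9 and 33.5 CPM in late pregnancy and 8.97, 13.7 and 15.6 in lactation, without overlap. The change was -1.20 on the log2 scale (SE 0.10, edgeR adjusted p = 9.8e-10). The endothelial markers PECAM1, CDH5 and VWF, the 3 of that list in the table, were also lower, by log2 changes of -0.71, -0.55 and -0.49. Their summed level was 140 to 192 CPM in late pregnancy and 85.8 to 124 in lactation, and none was at 0. The part of endothelial cells in the change of HSPA12B was not tested.

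**Figure D4:**
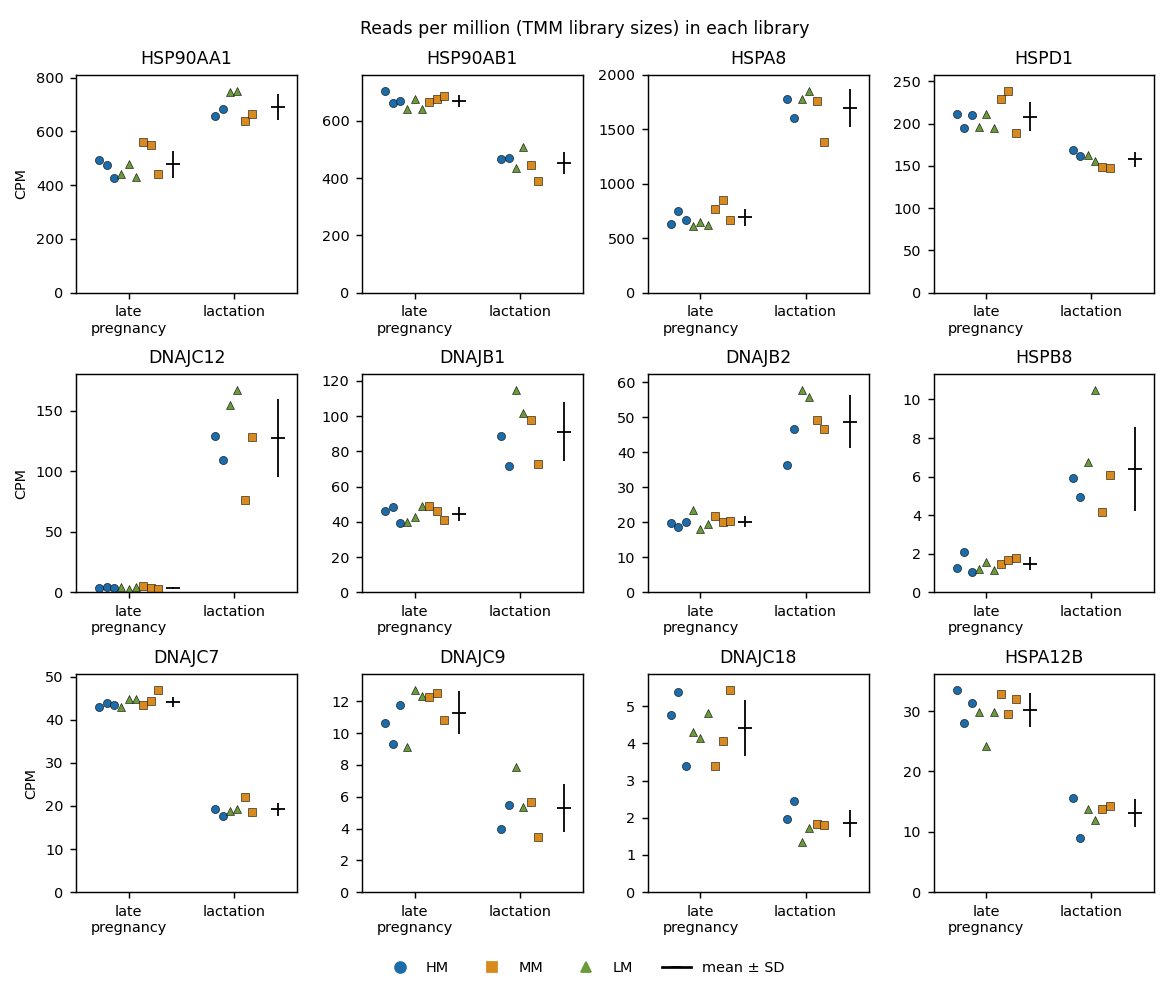
CPM of 12 members in each library by state, from 0 upwards (HM, MM and LM are the feed groups of the ewes' dams; bars are mean ± SD). In each panel the values of the states lie apart, with DNAJC12 at 2.53 to 5.18 CPM in late pregnancy and 76.0 to 167 in lactation.

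Of the 8 HSP110 and BAG genes 5 rose, 0 fell and 3 did not pass the test, beside 33.1% higher and 35.2% lower among all genes, while with library size alone the 5 had changes of -0.33 to -1.57, below 0 but above the median of all genes. HSPH1, of the HSP110 family, had 39.6, 45.4 and 64.5 CPM in late pregnancy and 79.9, 88.1 and 89.9 in lactation, without overlap (log2 0.82, SE 0.09, edgeR adjusted p = 9.5e-08). HSPA4 rose by 0.34 (SE 0.06, edgeR adjusted p = 2.1e-05), and HSPA4L had a log2 change of 0.13 (SE 0.13, edgeR adjusted p = 0.364). HSPA4L was called higher on quantile-normalized RPKM (0.21, limma adjusted p = 0.0238), but lower on intron reads (-0.51, edgeR adjusted p = 0.0294). BAG3, which pairs with HSPB8 to send damaged protein to autophagy, had 5.88, 6.92 and 8.42 CPM in late pregnancy and 13.5, 19.98 and 33.1 in lactation. Its states did not overlap, and the change was 3.00-fold (log2 1.58, SE 0.15, edgeR adjusted p = 7.8e-09). BAG1, which links HSP70 to the proteasome, rose by 0.89 (SE 0.05, edgeR adjusted p = 1.0e-11), from 91.1 to 108 CPM up to 174 to 207. BAG5 rose by 0.91 (SE 0.10, edgeR adjusted p = 1.7e-07), from 9.16 to 14.7 CPM up to 19.4 to 25.5. BAG6, which guards tail-anchored membrane proteins before their insertion, had a log2 change of -0.02 (SE 0.05, edgeR adjusted p = 0.687), and it was called lower with upper quartile scaling (-0.17, edgeR adjusted p = 0.00347) and on quantile-normalized RPKM (-0.27, limma adjusted p = 1.8e-05).

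The J proteins are given by class. All 6 DNAJB genes rose (DNAJB1, DNAJB2, DNAJB4, DNAJB5, DNAJB12 and DNAJB14), beside 33.1% of all genes, with log2 changes of 0.51 to 1.27, though with library size alone all 6 were below 0 and above the median of all genes. On intron reads, described further on, 3 of the 6 were called higher, while DNAJB12 (-0.05, edgeR adjusted p = 0.694), DNAJB4 (-0.03, 0.827) and DNAJB14 (0.03, 0.897) were not called. The 4 DNAJA genes had changes of -0.27 to 0.19, with DNAJA2 and DNAJA3 called higher but not with upper quartile scaling. Of the 24 DNAJC genes 9 rose (37.5%), 9 fell (37.5%) and 6 did not pass the test, shares close to the 33.1% and 35.2% of all genes, with a median of -0.08. DNAJB1, the main inducible partner of HSP70, had 39.4, 45.9 and 49.2 CPM in late pregnancy and 71.6, 93.1 and 115 in lactation, without overlap (log2 1.03, SE 0.09, edgeR adjusted p = 4.2e-09). DNAJB2, which binds ubiquitin and steers HSP70 clients to degradation, had 18.0, 20.1 and 23.6 CPM and then 36.5, 48.0 and 57.6, also without overlap (log2 1.27, SE 0.08, edgeR adjusted p = 3.2e-11). DNAJA1, the constitutive partner of HSPA8, had a log2 change of 0.05 (SE 0.07, edgeR adjusted p = 0.556), with 6.54% of its reads placed at 1 site alone. On quantile-normalized RPKM it was lower, at -0.22 (limma adjusted p = 0.00787).

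DNAJC12 had the largest change of the 61 members. It encodes a small J protein known as the partner of HSP70 for the hydroxylases of aromatic amino acids. In late pregnancy it had 2.53, 3.76 and 5.18 CPM (lowest, median and highest). In lactation the HM pools had 129 and 109 CPM, the LM pools 155 and 167, and the MM pools 76.0 and 129. The lowest lactation library thus lay far above the highest of late pregnancy, and the change was 32.1-fold (log2 5.003, SE 0.16, edgeR adjusted p = 1.1e-15). It was 3.096 on the log2 scale with library size alone and 4.91 to 5.12 with any 1 library left out. RPKM went from a mean of 4.58 ± 0.904 (SD, n = 9) to 42.8 ± 10.2 (SD, n = 6). DNAJC12 lies on chromosome 25 at 24090060 to 24123571 with 5 exons, and all its exon reads were unique.

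Other DNAJC genes fell. DNAJC7, a J protein with TPR repeats that binds both HSP70 and HSP90, had 43.0, 43.9 and 46.9 CPM in late pregnancy and 17.6, 19.0 and 22.1 in lactation. It changed by -1.19 (SE 0.05, edgeR adjusted p = 1.7e-13), and the spread within each state was narrow. DNAJC18 had 3.39, 4.30 and 5.43 CPM and then 1.36, 1.82 and 2.46, without overlap (log2 -1.26, SE 0.16, edgeR adjusted p = 1.2e-06). DNAJC9, which chaperones histones H3 and H4, had 9.15, 11.7 and 12.7 CPM and then 3.495, 5.39 and 7.87 (log2 -1.08, SE 0.14, edgeR adjusted p = 1.1e-06). The markers of dividing cells were lower beside it, MKI67, TOP2A, CDK1, PCNA, CCNB1 and MCM2 in 6 of 6, at a summed level of 112 to 206 CPM in late pregnancy and 26.8 to 49.0 in lactation, with none at 0. Their part in the change of DNAJC9 was not tested. DNAJC5, the cysteine string protein of secretory vesicles, rose by 0.66 (SE 0.14, edgeR adjusted p = 2.3e-04), from 3.92 to 5.82 CPM up to 5.56 to 11.6, with overlap.

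Small heat shock proteins did not move together. HSPB8 had 1.03, 1.46 and 2.10 CPM in late pregnancy and 4.18, 6.01 and 10.47 in lactation, without overlap (4.28-fold, log2 2.10, SE 0.19, edgeR adjusted p = 6.4e-09), while with library size alone its change was 0.19 (edgeR adjusted p = 0.363). HSPB1, the most abundant of the family per kilobase, had 20.4, 24.4 and 28.0 CPM and then 14.5, 21.0 and 23.5, with overlap. Its log2 change was -0.25 (SE 0.09, edgeR adjusted p = 0.0204), and the call was lost without the first HM lactation pool (-0.18, edgeR adjusted p = 0.058) or without the second MM lactation pool (-0.21, edgeR adjusted p = 0.0625). HSPB2 was lower by a log2 change of -0.96. HSPB11, grouped here by symbol only, was lower by -0.99, with overlap and with 6 to 18 exon reads a lactation library. HSPB6 was not called. The chaperonin HSPD1, which folds proteins in the matrix of mitochondria, had 189, 210 and 239 CPM in late pregnancy and 148, 159 and 169 in lactation (log2 -0.40, SE 0.06, edgeR adjusted p = 5.2e-06), with 44.6% unique reads. Of the 8 mitochondrial members 3 rose (37.5%: DNAJA3, DNAJC11 and DNAJC19), 2 fell (25.0%: HSPD1 and DNAJC15) and 3 were not called, beside 33.1% and 35.2% of all genes, and their median log2 change was 0.02.

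Partner genes outside the symbol rule were counted from lists, each of which stands beside 33.1% higher and 35.2% lower among all genes tested. Of 4 genes of the heat shock factors in the table, HSF1 had a log2 change of 0.01 (SE 0.08, edgeR adjusted p = 0.925) and HSF2 of -0.17 (SE 0.09, edgeR adjusted p = 0.103), while HSF4 and HSBP1 rose by 0.65 and 0.30. Of 13 genes listed with HSP90, 6 rose (46.2%) and 3 fell (23.1%), with a range of -0.39 to 0.70. Among those that fell was TRAP1 (-0.35), which is the HSP90 of mitochondria and not a co-chaperone. FKBP5, an immunophilin induced by glucocorticoids, had the highest change. Of 6 HSP70 co-chaperones 2 rose and 2 fell (33.3% each). In the cytosolic chaperonin TCP1, CCT2, CCT3 and CCT4 fell and CCT6A, CCT6B and CCT7 rose (44.4% lower and 33.3% higher of 9), with CCT5 and CCT8 not called. Of 6 prefoldin subunits 4 rose (66.7%), and PFDN5 fell by 0.89. The 5 chaperones of the endoplasmic reticulum left out by the rule had log2 changes of 1.19 to 1.53 in 4 (HSPA5, DNAJB9, DNAJB11 and DNAJC3) and of -1.05 in DNAJC10, all 5 called by edgeR.

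Reads on introns (whole-gene less exon reads) gave a second readout for 45 members. They can come from RNA that is not yet spliced, but also from any transcribed stretch that the annotation does not count as exon. BAG4 had 394 to 3157 such reads a library, beside 36 to 270 exon reads. On these reads 18 members were called higher in lactation (40.0%) and 10 lower (22.2%), beside 29.0% and 29.0% of the 10344 genes tested. Both readouts were called in the same direction in 23 of 45 members, beside 44.5% of the 9801 genes tested on both, and in opposite directions in 1 (DNAJC24), beside 2.97%. The changes are relative to the bulk of intron reads. With the TMM factors of the exon reads the median of all genes was 1.28. Then 41 members were called higher and 0 lower, beside 8694 higher and 307 lower of the 10344 genes. At that setting the 18 were above the median of all genes and the 10 below it, which the shared shift in scaling nearly fixed in advance.

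DNAJC12 changed by 4.59 on introns (SE 0.18, edgeR adjusted p = 1.7e-16), beside 5.003 on exons. HSPA8 changed by 2.12 (SE 0.20, edgeR adjusted p = 2.0e-09), with 31 to 100 intron reads a library in late pregnancy and 41 to 235 in lactation. BAG3 changed by 2.68 (SE 0.28, edgeR adjusted p = 1.4e-08) on 2 to 24 reads a library. HSP90AA1 changed by 1.11 (SE 0.20, edgeR adjusted p = 4.5e-05), HSPH1 by 1.11 (SE 0.12, edgeR adjusted p = 2.9e-08) and DNAJB2 by 1.43 (SE 0.13, edgeR adjusted p = 2.7e-09). Among the genes that fell on exons, DNAJC7 changed by -1.18 (SE 0.13, edgeR adjusted p = 2.8e-08) and HSPA12B by -1.68 (SE 0.20, edgeR adjusted p = 1.3e-07). For HSPD1 the value was 0.10 (SE 0.14, edgeR adjusted p = 0.584), and for DNAJC2 it was 0.03 (SE 0.09, edgeR adjusted p = 0.931). HSPA6 is annotated with 2 exons, but 0 of its reads joined them, so its intron value of 0.93 (SE 0.32, edgeR adjusted p = 0.0141) may not be one of an intron. HSP90AB1, HSPB8 and DNAJC9 did not reach the read filter on introns, and HSPA1A has none in the table.

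**Figure D5:**
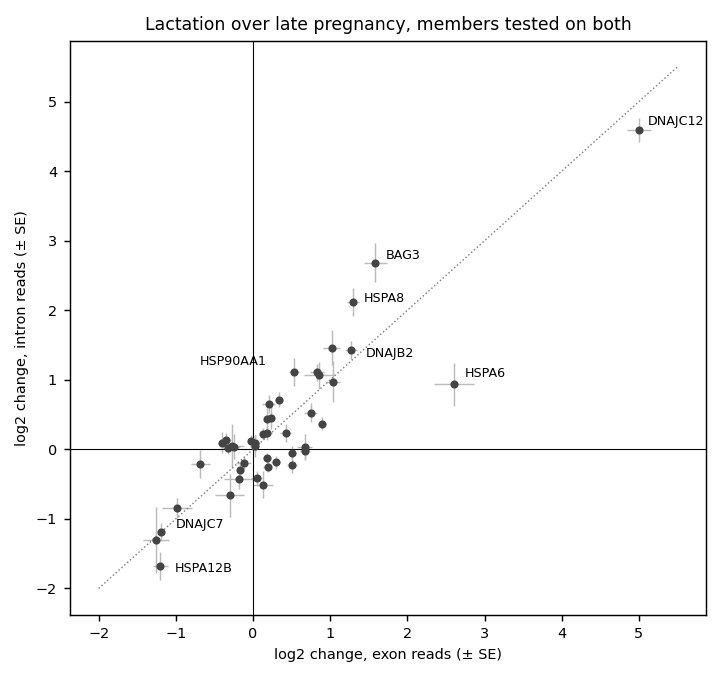
Log2 change from late pregnancy to lactation on exon reads (x axis) and on intron reads (y axis), with SE, for the 45 members tested on both. The dotted line marks equal changes. DNAJC12 lies at 5.003 and 4.59, and BAG3 and HSPA8 lie above the line at 2.68 and 2.12 on introns.

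The labels also allow a comparison by the feed of the ewes' dams. By the names of the deposited libraries all LM pools ran in 1 sequencing lane, and most HM and MM pools in another. Feed and lane therefore cannot be fully told apart. Over the 9 late pregnancy libraries 0 of 61 members were called between HM, MM and LM by edgeR, beside 0.0% of 13747 genes, and 2 members had an unadjusted p under 0.05, beside 4.15% of all genes. The smaller p was that of HSPA1A (edgeR, adjusted p = 0.648), which had 5.76 to 7.98 CPM in HM, 9.26 to 12.4 in LM and 10.7 to 17.7 in MM. The HM pools did not overlap the others. DESeq2 called 1 member, HSPA1A (adjusted p = 0.00557), among 20 genes called in all. The other was HSPA8, with its highest CPM, 854, in an MM pool. The change between states did not differ by dam feed in any member at an adjusted p under 0.05 (0 of 61 by edgeR, beside 0.0% of 13345 genes, and 0 by DESeq2, which called 19 genes in all), and 4 members (BAG3, HSPB1, DNAJC5 and HSPA8) had an unadjusted p under 0.05, beside 6.56% of all genes. The smallest adjusted p by edgeR was 0.735. With 3 and 2 pools a feed group, a difference that was not called is not shown to be absent.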

How the data were processed

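RNA of 9 late pregnancy and 6 lactation pools was sequenced by the authors with paired-end reads (Illumina HiSeq) and mapped in CLC Genomics Workbench to the sheep genome, in a version that the methods and the labels give differently, so that positions are those of the deposited table. The deposited counts are the authors' numbers of reads on exons and on whole genes, without normalization, and reads without a single site were included, which can blur near-identical genes. The deposited RPKM are the authors' exon reads per kilobase, scaled to the reads on genes of each library, and a further set was quantile-normalized by the authors. Columns of the authors' own fold changes and p-values were not used.

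Exon counts (whole-gene counts for the 5583 features without an annotated transcript) entered edgeR 4.0.16 (R 4.3.3), with filterByExpr by state, TMM scaling and the quasi-likelihood F-test without covariates. Adjusted p-values are Benjamini-Hochberg values over all genes tested, a gene was called at an adjusted p under 0.05, and the SE was taken from the F statistic. Intron reads are whole-gene less exon reads. Ratios used reads per kilobase and an exact permutation test (scipy 1.17.1). A ratio with HSPE1 was planned and could not be made. DESeq2 1.42.0, limma 3.58.1 (log2 of quantile-normalized RPKM plus 1), other scalings and filters, and leaving out libraries were alternatives. Named genes are members called with more than a 2-fold change and a fixed set of core members. The members and lists were chosen with earlier results of these data known. The fits were run on simulated counts with 200 genes changed. Of 2-fold changes they recovered 94% between the states, 93% on introns, 81% for dam nutrition and 41% for the interaction. The simulated libraries held no shift of reads towards milk proteins, so they do not test the scaling. Reads carried no molecular identifiers, so precision is given as the spread between libraries. No sequences are shown, since none of the members' sequences was in the files used here.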

Additional observations from a re-analysis of the deposited data

Results flagged for a closer look

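Of 56 sets of libraries tested for a value apart from the rest (28 named genes in each state), 2 held one, and chance alone flags about 1 in 20 such sets. DNAJC2 had 21.8 CPM in the first LM lactation pool, while the other lactation pools lay between 26.5 and 28.1. DNAJC7 had 46.9 CPM in the third MM late pregnancy pool, while the others lay between 43.0 and 44.8. In neither gene did the value reach into the range of the other state.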

How the results depend on the processing

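With library size alone 2 members were called higher and 57 lower, beside 13057 of 13345 genes called, 97.3% of these lower. The members' median log2 change was -1.76, and the signs of BAG1 (-1.01), BAG3 (-0.33), BAG5 (-1.002), DNAJA1 (-1.86), DNAJB1 (-0.88), DNAJB2 (-0.64), DNAJC5 (-1.24), HSP90AA1 (-1.38), HSPA13 (-0.89), HSPA14 (-1.73), HSPA1A (-0.30), HSPA4 (-1.57), HSPA8 (-0.61), HSPA9 (-1.88) and HSPH1 (-1.08) turned, where the median of all genes was -1.94. On quantile-normalized RPKM DNAJA1 (-0.22) and HSPA9 (-0.24) turned, and with upper quartile scaling HSPA9 (-0.13), and these settings gave member medians of 0.061 and 0.0011. Upper quartile scaling moved the lower share of all calls from 51.6% to 63.7%. On quantile-normalized RPKM 24 members were called higher and 17 lower of 58 tested, and with no filter 25 and 15 of 61. With at least 10 reads in every library these counts were 24 and 11 of 49 tested. The member median was 0.12 with at least 10 reads in every library, 0.10 with no filter and 0.11 without the first LM and MM lactation pools together, a setting chosen after seeing the data, and that of all genes under no filter was -0.12. With exon TMM factors 41 members were called higher on introns and 0 lower, beside 8694 and 307 of 10344 genes. DESeq2 called 1 member (HSPA1A) for dam nutrition.

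Leaving out each library in turn gave 27 to 30 members higher and 14 to 16 lower, a median of 0.13 to 0.18, 15 to 19 higher and 7 to 11 lower on introns, and 0 to 0 called for dam nutrition or its interaction with state. Single left-out pools ended the calls of DNAJA3 (LM lactation 1, 0.13), DNAJC1 (HM lactation 1, LM lactation 1 or MM lactation 2, 0.14 to 0.17), HSPBP1 (LM lactation 1, MM lactation 1 or 2, MM late pregnancy 2 or 3, 0.16 to 0.20) and HSPB1, and brought calls of lower DNAJA4 (LM lactation 2, -0.36) and DNAJC28 (HM lactation 2, -0.74). Differences in log2 ratio stayed at 1.07 to 1.13 for HSP90AA1 to HSP90AB1, 1.84 to 1.90 for HSPA8 to HSP90AB1 and 1.24 to 1.32 for HSPA8 to HSPA9, and none of these calls was lost with unique reads, with whole-gene reads or with a library left out. The states did not overlap in any of these ratios, so leaving out a library could not end a call. Late pregnancy and lactation pools share replicate numbers, but the correlations of their deviations were between -0.03 and 0.09, so they were not taken as pairs. With the replicate block 27 members were called higher and 15 lower, the median was 0.11, and the call of each of the 28 named genes was the same. Members of low count are limited, such as DNAJC6, DNAJC28, DNAJC30 and HSPB6, which had at most 47 exon reads in any library of either state. The part of the reads taken by milk proteins in lactation was not tested.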
